A study of Arabidopsis thaliana with 24 samples.

Results

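The expression of 48 nuclear genes for photosynthesis was followed through 24 RNA sequencing libraries of Arabidopsis thaliana roots. They were picked by family name and locus, by a rule that used no measured value, and make up 48 of the 34212 loci in the count table. Earlier results of these data were known when they were picked. The set holds 4 LHCA and 13 LHCB genes for the light-harvesting antennae of photosystem I and photosystem II, 12 subunit genes of photosystem I, 9 of photosystem II, 2 plastocyanin genes, 5 Rubisco genes (4 small subunit copies and RCA, Rubisco activase) and 3 Calvin cycle enzyme genes.

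All 8 groups came from a homozygous line that carried pANT:XVE>>axr3-1-YFP, a construct in which estradiol switches on axr3-1 fused to YFP in the cells where the ANT promoter is active. AXR3 (IAA17) is a repressor of auxin responses, and the axr3-1 form resists the breakdown that auxin triggers, so cells that make it respond poorly to auxin. Plants 9 d old, grown on vertical plates under long days, received DMSO (the control), 5 µM estradiol (EST), 1 µM of the cytokinin 6-benzylaminopurine (BAP) or EST + BAP, for 4 h or for 24 h. Segments of the main roots between 0.5 and 2 cm below the junction with the hypocotyl were then harvested from rows of plants, so that a library is a pool of roots. Each group had 3 libraries, from 3 repeats of the experiment. No group lacked the transgene, so an action of EST that does not pass through axr3-1 cannot be told apart from that of axr3-1, and the segments also held the root cells in which the ANT promoter is silent. The 4 h and 24 h treatments were separate experiments, so time and experiment cannot be told apart. In whole root segments, fewer cells that express a gene and less RNA per cell cannot be told apart in any value below.

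Chlorophyll-binding antenna proteins gather light for the photosystems, photosystem II splits water with the help of its extrinsic PSBO, PSBP and PSBQ proteins, and plastocyanin carries electrons to photosystem I. Rubisco and the Calvin cycle enzymes then fix carbon dioxide in the stroma. These nuclear genes are strongly expressed in green tissue and weakly in roots, whose plastids mostly lack chlorophyll. Roots that are kept in light can nevertheless turn green, and cytokinin is known to favour and auxin to restrain that greening.

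Library depth ran from 14514022 to 45586679 counts. The shallowest library, DMSO 24 h replicate 1, had 54.1% of its counts on nuclear ribosomal RNA loci, which left 6001669 nuclear counts, and EST + BAP 4 h replicate 1 had 9.71% of its counts on chloroplast loci against 1.27 to 2.72% in the other libraries. A floor of 3 counts corresponded to 0.413 CPM (normalized counts, scaled by TMM to library size) in the shallowest and 0.0612 CPM in the deepest library. The summed level of 10 root tissue markers lay between 335 and 584 CPM in all 24 libraries. Single markers moved both ways under it, with log2 fold changes against DMSO at 24 h from -2.69 to 1.07 in BAP and from -2.58 to 0.96 in EST. The summed level of 8 leaf stomatal markers, a sign of leaf tissue in the segments, lay between 0.645 and 3.7 CPM. EPF1 had 0 or 1 count and MUTE 0 to 2, while MYB60 and KAT1 gave most of the sum in DMSO and BAP at 24 h.

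Expression was spread unevenly over the 48 genes. Levels are compared between genes as CPM per kilobase of the longest annotated transcript, averaged over the 24 libraries. LHCB1.3 stood highest at 167 CPM per kilobase, followed by LHCB1.5 at 161, PSBR at 156.8, RBCS1A at 109.2 and LHCA4 at 102. The ranges over libraries were wide and overlapped, from 53.7 to 354 for LHCB1.3 and from 70.6 to 369 for LHCB1.5, so the order of these neighbours is not resolved. At the other end, RBCS1B, a Rubisco small subunit copy, had 0 to 6 counts a library and LHCB1.4, an antenna copy, 0 to 15. Neither entered any test. RBCS2B entered only the fits that included EST + BAP 4 h and the EST by time interaction, so 45 or 46 of the 48 genes were tested in each comparison.

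Some of these loci are near-identical copies, between which the counting could have split reads. Within the part that aligned, the transcripts of RBCS3B and RBCS2B were 94.4% identical, those of LHCB2.1 and LHCB2.2 94.3%, and those of LHCB1.2 and LHCB1.1 93.6%. For RBCS3B and RBCS2B that part was 656 bases, 54.2% of the first and 70.2% of the second. It was 1035 bases for the LHCB2 pair and 1053 for the LHCB1 pair. Values of single LHCB1, LHCB2 and RBCS B copies are therefore uncertain, and family sums are given beside them. The RBCS B sum leaves out RBCS1A, which matched RBCS2B at 90.5% identity over 549 bases. In all, 17 genes overlapped a locus on the opposite strand, and whether the counting used strand is not given in the sources used here, so these values may hold antisense reads. The longest such overlaps were 1045 bases at LHCB1.5, whose whole length faces a locus not analysed here, 788 bases at PSAH1, 595 at LHCB2.3, 479 at PSAG and 436 at PSAE1.

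The promoters of 5 genes are printed because these genes span the responses described further on. LHCA4 was the most abundant antenna gene of photosystem I, LHCB4.1 and GAPB had some of the smallest p-values under BAP, PSBQ2 was called under both EST and BAP at 24 h, and PSAH2 was not called under BAP at 24 h. Each sequence is the 250 bases before the annotated gene start, 5′ to 3′ on the gene's strand, from the RefSeq genome of build TAIR10.1. Capitals mark matches on either strand to the G-box CACGTG, the I-box GATAAG, the GLK motif CCAATC, the evening element AAAATATCT or the TATA box TATAAA, none of which contains another.
LHCA4 (chr3:17495034-17495283, minus strand): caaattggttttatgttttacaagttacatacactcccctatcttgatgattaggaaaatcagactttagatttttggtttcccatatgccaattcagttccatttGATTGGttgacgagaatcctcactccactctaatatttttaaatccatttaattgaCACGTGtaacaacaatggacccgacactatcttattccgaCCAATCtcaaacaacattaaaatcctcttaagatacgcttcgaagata
LHCB4.1 (chr5:208616-208865, plus strand): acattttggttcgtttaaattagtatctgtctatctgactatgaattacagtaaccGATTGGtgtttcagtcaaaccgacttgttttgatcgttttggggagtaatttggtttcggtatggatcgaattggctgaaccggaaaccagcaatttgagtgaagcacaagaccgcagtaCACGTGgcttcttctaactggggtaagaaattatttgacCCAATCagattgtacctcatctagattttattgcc
PSBQ2 (chr4:2673244-2673493, minus strand): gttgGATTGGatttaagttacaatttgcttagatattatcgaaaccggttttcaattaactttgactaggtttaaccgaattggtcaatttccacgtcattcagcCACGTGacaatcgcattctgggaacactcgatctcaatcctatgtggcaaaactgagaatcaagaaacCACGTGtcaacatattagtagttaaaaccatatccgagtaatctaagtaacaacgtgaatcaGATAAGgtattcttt
GAPB (chr1:16127103-16127352, plus strand): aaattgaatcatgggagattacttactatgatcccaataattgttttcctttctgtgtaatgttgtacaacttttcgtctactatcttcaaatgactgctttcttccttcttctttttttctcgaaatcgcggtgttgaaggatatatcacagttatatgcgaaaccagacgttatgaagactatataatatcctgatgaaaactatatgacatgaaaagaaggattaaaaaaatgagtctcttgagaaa
PSAH2 (chr1:19454548-19454797, plus strand): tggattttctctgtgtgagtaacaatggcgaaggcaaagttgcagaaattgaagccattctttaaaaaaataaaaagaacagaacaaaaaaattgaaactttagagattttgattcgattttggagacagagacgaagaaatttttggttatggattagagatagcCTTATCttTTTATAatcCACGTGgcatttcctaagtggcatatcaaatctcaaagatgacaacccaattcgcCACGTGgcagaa
LHCA4 and LHCB4.1 each hold 1 G-box and 2 CCAATC matches. PSBQ2 holds 2 G-boxes, an I-box and a CCAATC match, PSAH2 holds 2 G-boxes, an I-box and a TATA box, and GAPB holds no match to any of the 5. Over the 48 genes, 10 promoters (20.8%) held the G-box, a site known for bZIP and bHLH factors of light signalling such as HY5, against 6.5% of 27357 promoters of the same length in the genome. The I-box, common in light-regulated promoters, was in 12 (25.0%) against 12.3%, and CCAATC, a site known for GLK factors, was in 13 (27.1%) against 10.2%. The TATA box was in 20 (41.7%) against 47.3%, and the evening element, bound by clock factors, was in 0 against 2.4%. These shares describe letters in a window and were not tested.

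As a sum over the 48 genes, photosynthesis transcripts at 24 h were lowest in BAP and highest in EST. There the sum stood at 2909, 2853 and 3257 CPM in the DMSO libraries, at 4100, 3300 and 3272 in EST, at 1592, 1045 and 1505 in BAP and at 1938, 1925 and 2111 in EST + BAP. The BAP libraries lay below all others of that time, and the EST + BAP libraries lay between BAP and DMSO without overlap on either side. At 4 h the sum stood at 1548, 2125 and 2323 CPM in DMSO, 1697, 1731 and 2798 in EST, 1206, 1316 and 1558 in BAP and 1451, 1079 and 1554 in EST + BAP. There the groups lay closer, and BAP overlapped DMSO by the narrow margin of 1 library. As a ratio of group means, BAP stood at 68% of DMSO at 4 h and at 45.9% at 24 h, and EST + BAP at 68.1% and 66.2%. The share of nuclear counts other than ribosomal RNA that fell on the 48 genes ran from 0.126% in BAP 24 h replicate 2 to 0.508% in EST 24 h replicate 1. The 95% exact binomial interval of the latter, 0.5055 to 0.5107%, covers counting error only.

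**Figure D1:**
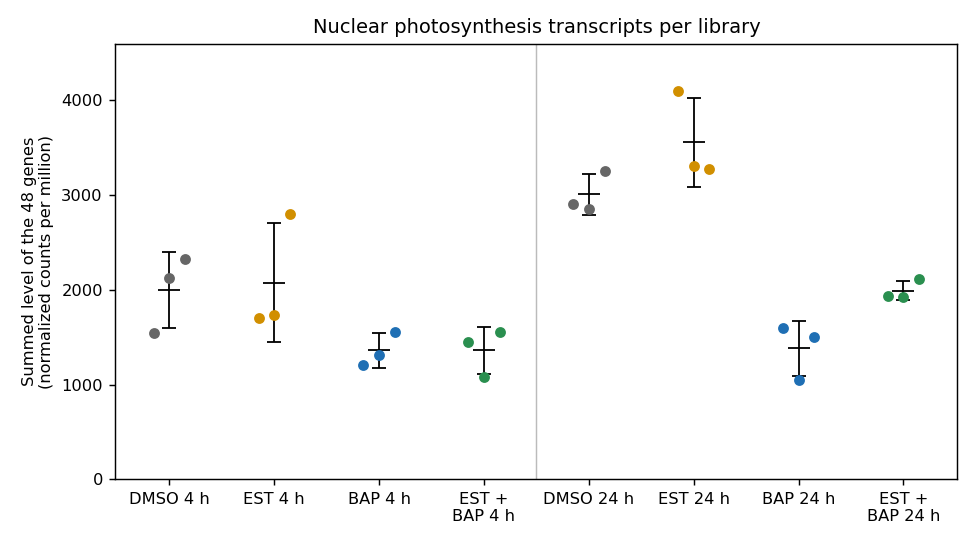
Summed level of the 48 nuclear photosynthesis genes in CPM (y axis) for each library, by group (x axis); points are libraries, and bars are the mean and SD of 3. The 3 BAP 24 h libraries lie between 1045 and 1592 CPM, all below the 3 DMSO 24 h libraries at 2853 to 3257 CPM.

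The effect of cytokinin alone was tested as BAP against DMSO. After 24 h of BAP, nuclear photosynthesis transcripts fell across every role group, by a median of 1.16 on the log2 scale. Of the 45 genes tested, 43 were called lower (edgeR quasi-likelihood test, log2 fold change of at least 0.5 and Benjamini-Hochberg adjusted p of at most 0.05), while 17.2% of all genes tested were called lower and 17.6% higher. All 45 log2 fold changes were negative, from -2.78 for LHCB1.2 to -0.32 for PSAH2, against a median of -0.02 over all genes. For 44 of the 45, every BAP library lay below every DMSO library, as for 27.8% of all genes, and in each of the 3 BAP libraries all 45 lay below the DMSO mean.

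The antennae fell together. All 4 LHCA genes were called, with a median log2 change of -1.21, and all 12 LHCB genes tested, with a median log2 change of -1.34. LHCA4 (AT3G47470, chromosome 3, 17493343 to 17495033), which binds long-wavelength chlorophylls of photosystem I, stood at 180.1, 182 and 195 CPM in DMSO and 94.9, 62.1 and 88.7 CPM in BAP (log2 fold change -1.21, SE 0.15, adjusted p = 0.000183). The BAP libraries all lay far below the lowest DMSO library. LHCB1.3 (AT1G29930, chromosome 1, 10477885 to 10479114), an abundant protein of the mobile antenna trimers, went from 317, 269 and 329 CPM to 112, 66.0 and 98.1 CPM (log2 fold change -1.76, SE 0.18, adjusted p = 7.81e-05). LHCB1.5 (AT2G34420, chromosome 2, 14522524 to 14523568), another copy of the same antenna protein, went from 233, 243 and 232 to 124, 73.8 and 111 CPM (log2 fold change -1.22, SE 0.17, adjusted p = 0.00038). In both genes BAP replicate 2 was the lowest library of the time. LHCB4.1 (AT5G01530, chromosome 5, 208866 to 210548), a minor antenna protein that links the trimers to the photosystem II core, went from 71.9, 71.1 and 80.8 to 36.1, 27.9 and 36.8 CPM (log2 fold change -1.18, SE 0.12, adjusted p = 6.21e-05). LHCB5 and LHCB6, the other minor antenna genes in the set beside LHCB4.2, had log2 fold changes of -1.06 and -0.80, and LHCB4.2 at -1.49. Summed over copies, LHCB1 had a log2 fold change of -1.52 and LHCB2 at -1.14, both called, so the family-level values do not rest on how reads were split between copies. LHCB1.2 had the largest change, but its counts ranged from 0 to 636 over the 24 libraries and it shares most of its sequence with LHCB1.1.

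Most photosystem subunit genes fell as well. In photosystem I, 11 of 12 genes were called, with a median log2 change of -0.93, and in photosystem II 8 of 9, with a median log2 change of -1.03. PSAK (AT1G30380, chromosome 1, 10722183 to 10723247), a photosystem I subunit at the antenna side, stood at 46.7, 37.3 and 47.7 CPM in DMSO and 24.2, 18.9 and 23.6 CPM in BAP (log2 fold change -1.005, SE 0.13, adjusted p = 0.000243). PSBR (AT1G79040, chromosome 1, 29735952 to 29737009), a small subunit that helps hold the extrinsic proteins of photosystem II, went from 153, 166 and 183 to 83.95, 60.7 and 82.7 CPM (log2 fold change -1.18, SE 0.13, adjusted p = 0.000121). Neither pair of groups overlapped. PSBO2 (AT3G50820, chromosome 3, 18890874 to 18892508), a form of the manganese-stabilizing protein of the water-splitting complex, went from 33.1, 39.6 and 45.5 to 18.1, 11.5 and 18.1 CPM (log2 fold change -1.36, SE 0.18, adjusted p = 0.000295). Its paralog PSBO1 had a log2 fold change of -1.03 and was called too. Among the other extrinsic proteins, PSBQ2 had a log2 fold change of -1.46, PSBP1 at -0.92 and PSBQ1 at -0.53, all called. The 2 genes that were not called were PSAH2 and PSBX. PSAH2, the more abundant form of the photosystem I subunit where the mobile antenna docks, had 15.4, 12.3 and 17.7 CPM in DMSO and 14.2, 9.97 and 12.9 CPM in BAP (log2 fold change -0.32, SE 0.17, adjusted p = 0.143), whereas its paralog PSAH1 had a log2 fold change of -1.18 and was called. The difference between these paralogs was not tested. PSBX, a small photosystem II subunit whose values were added after they had been seen, had 73.98, 66.0 and 93.7 CPM in DMSO and 62.4, 49.4 and 62.96 CPM in BAP (log2 fold change -0.45, SE 0.14, adjusted p = 0.0273).

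Carbon fixation and plastocyanin genes fell with them. The 3 Calvin cycle genes were all called, as were both plastocyanin genes and the 3 Rubisco genes tested. GAPB (AT1G42970, chromosome 1, 16127353 to 16129895), a subunit of the chloroplast glyceraldehyde-3-phosphate dehydrogenase, had the smallest p of the 48 genes over the comparisons with DMSO, at 1.2e-06 unadjusted. It stood at 32.1, 39.95 and 43.3 CPM in DMSO and 14.5, 11.01 and 14.1 CPM in BAP (log2 fold change -1.59, SE 0.14, adjusted p = 3.27e-05). GAPA1 (AT3G26650, chromosome 3, 9794862 to 9797045), the partner subunit, went from 78.1, 83.7 and 89.6 to 35.01, 23.8 and 36.9 CPM (log2 fold change -1.43, SE 0.15, adjusted p = 8.98e-05). PRK, phosphoribulokinase, which makes the acceptor of carbon dioxide, had a log2 fold change of -1.32. RBCS1A (AT1G67090, chromosome 1, 25048158 to 25049667), the main small subunit copy of Rubisco in these roots, went from 215, 207 and 250 to 94.0, 69.99 and 104 CPM (log2 fold change -1.36, SE 0.15, adjusted p = 9.4e-05). RCA had a log2 fold change of -1.10. PETE2 (AT1G20340, chromosome 1, 7042046 to 7043392), the more abundant plastocyanin, went from 41.9, 42.01 and 63.1 to 30.9, 19.3 and 29.3 CPM (log2 fold change -0.93, SE 0.21, adjusted p = 0.00507). In all of these the BAP group lay wholly below the DMSO group.

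Between 37 and 44 genes were called when each library was left out in turn, and 37 of the 43 were called in every one of these fits. The sum of the leaf stomatal markers moved the other way, from 1.24 to 1.66 CPM in DMSO to 2.98 to 3.7 CPM in BAP, of which MYB60 and KAT1 gave most. At 4 h the sum stood at 0.673 to 0.890 CPM in DMSO and 1.27 to 1.36 CPM in BAP. These markers did not all move together. Of 2 tested in EST + BAP against BAP at 24 h, 1 was called higher (log2 fold change 0.91) and 1 lower (-3.57), beside 11.6% and 11.8% of all genes. The part of these markers in the results was not tested.

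**Figure D2:**
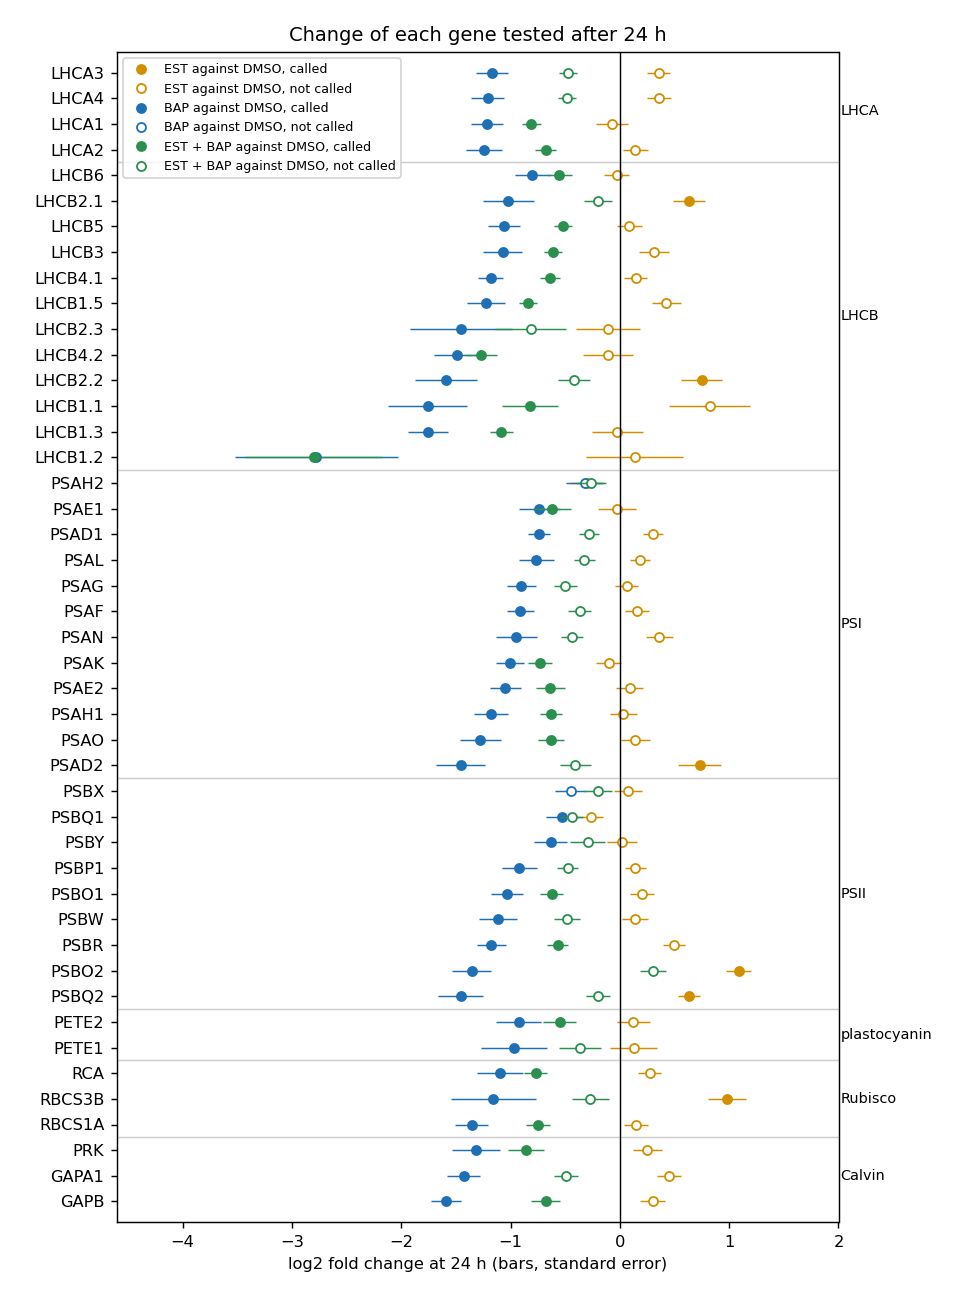
Log2 fold change at 24 h (x axis) of the 45 genes tested (y axis, grouped by role and ordered by the change under BAP) for EST, BAP and EST + BAP, each against DMSO; bars are standard errors, and filled points passed the test. Under BAP 43 points are filled and all lie below 0, under EST + BAP 23 are filled and lower, and under EST 6 are filled and higher.

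The EST + BAP group tested cytokinin together with EST, the inducer of axr3-1. At 24 h the 45 genes tested lay lower than in DMSO, by a median of 0.55 on the log2 scale. Of these, 23 were called lower, against 10% of all genes called lower and 10.4% higher. For 38, and for 21.9% of all genes, every EST + BAP library lay below every DMSO library. The calls covered 9 of 12 LHCB genes, 2 of 4 LHCA, 5 of 12 photosystem I, 2 of 9 photosystem II, 1 of 2 plastocyanin, 2 of 3 Rubisco and 2 of 3 Calvin cycle genes. LHCB1.3 stood at 140.5, 135 and 157 CPM (log2 fold change -1.08, SE 0.11, adjusted p = 8.11e-05) and LHCB1.5 at 136, 128 and 133 CPM (log2 fold change -0.84, SE 0.082, adjusted p = 7.32e-05). Both lay below every DMSO library. LHCA4 stood at 132, 129 and 138 CPM and was not called (log2 fold change -0.48, SE 0.082, adjusted p = 0.00174), since its change was under the fold limit. PSBO2 stood at 43.8, 54.1 and 49.8 CPM (log2 fold change 0.30, SE 0.12, adjusted p = 0.087), the only positive value in this comparison, with 1 EST + BAP library inside the DMSO range. Leaving out each library in turn gave 16 to 30 calls.

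Set against BAP alone at 24 h, the same EST + BAP libraries lay higher for all 45 genes tested, by a median of 0.53. Of these, 19 were called higher, beside 11.6% of all genes called higher and 11.8% lower, and 35 lay wholly above BAP, as did 25.1% of all genes. PSBO2 rose most among those called (log2 fold change 1.65, SE 0.17, adjusted p = 0.000175), from 18.1, 11.5 and 18.1 to 43.8, 54.1 and 49.8 CPM. PSBQ2 followed at 1.25, LHCB2.2 at 1.16, PSAD2 at 1.05, GAPA1 at 0.93 and GAPB at 0.91. PSAD2 makes the stromal subunit on which ferredoxin docks. GAPB stood at 21.02, 24.0 and 28.3 CPM in EST + BAP, GAPA1 at 50.6, 62.5 and 66.3 CPM and RBCS1A at 123, 129 and 149 CPM, each between its BAP and its DMSO libraries. PSBR, at 113, 106 and 122 CPM, was called as well (log2 fold change 0.60, SE 0.13, adjusted p = 0.0057). LHCB4.1 stood at 49.5, 43.5 and 51.2 CPM and was called (log2 fold change 0.53, SE 0.12, adjusted p = 0.00721). PSAK, at 26.7, 24.3 and 28.2 CPM, and PETE2, at 32.6, 32.7 and 36.4 CPM, were not called. The count rested partly on 2 libraries: it was 9, with a median of 0.31, without BAP replicate 2, the lowest library for these genes, and 30 without BAP replicate 1.

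Set against EST alone at 24 h, EST + BAP lay lower by a median of 0.79. In total, 40 of the 45 genes were called lower (13.8% of all genes lower, 16.5% higher), and 43 lay wholly below EST, as did 29% of all genes. These 40 were all among the 43 called in BAP against DMSO. The genes not called, with their log2 fold changes, were PSAH2 (0.04), PSBQ1 (-0.18), PSBX (-0.27), PSBY (-0.32) and PETE1 (-0.49). LHCB1.2 stood lowest at -2.94, with LHCB1.1 at -1.65, and the LHCB1 sum at -1.18.

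The EST group tested EST, the inducer of axr3-1, without added cytokinin. After 24 h, 6 of the 45 genes were called higher and the median log2 fold change was 0.15, with 6.26% of all genes called higher and 8.96% lower. In all, 36 of the 45 values were positive. For 17, and for 20.1% of all genes, every EST library lay above every DMSO library, and for 0, against 21.7% of all genes, below. The 6 genes called were PSBO2 and, with their log2 fold changes, RBCS3B (0.98), LHCB2.2 (0.75), PSAD2 (0.73), LHCB2.1 (0.63) and PSBQ2 (0.63). PSBO2 rose from 33.1, 39.6 and 45.5 to 87.7, 84.04 and 81.4 CPM (log2 fold change 1.09, SE 0.11, adjusted p = 0.000253), with no overlap. PSBQ2 stood at 22.7, 21.7 and 27.2 CPM in DMSO and 39.4, 36.2 and 35.6 CPM in EST, and PSAD2 at 5.65, 6.51 and 7.74 CPM in DMSO and 14.5, 8.72 and 10.5 CPM in EST. All 3 genes have a paralog in the set whose log2 fold change was not called, PSBO1 at 0.20, PSBQ1 at -0.26 and PSAD1 at 0.31. The differences between paralogs were not tested. PSBR, at 245, 216 and 247 CPM, lay above every DMSO library but just under the fold limit (log2 fold change 0.497, adjusted p = 0.00805 by edgeR).

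The abundant antenna and carbon fixation genes were not called under EST at 24 h. Among LHCA and among Calvin cycle genes, as for PSBR, the fold limit alone kept at least 1 gene from a call. The smallest edgeR adjusted p was 0.0161 among Calvin cycle genes and 0.0392 among LHCA genes. Their largest log2 fold changes were 0.45 and 0.36. LHCA4 stood at 273, 219.6 and 220.1 CPM, LHCB1.3 at 436, 225 and 239 CPM and LHCB1.5 at 386, 288 and 276 CPM. Replicate 1 was the highest EST library for all 3 genes and for the sum, and the EST libraries of LHCA4 and LHCB1.5 lay above those of DMSO. LHCB4.1 stood at 93.9, 77.3 and 76.4 CPM, PSAK at 44.2, 36.8 and 41.1 CPM and PETE2 at 52.1, 52.1 and 56.7 CPM. All of these overlapped their DMSO range. RBCS1A stood at 275, 241 and 228 CPM, GAPA1 at 128, 115 and 101 CPM and GAPB at 49.2, 50.3 and 43.9 CPM, of which only RBCS1A overlapped DMSO. Between 4 and 8 genes were called when each library was left out, and the median rose to 0.27 without DMSO replicate 3.

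At 4 h of BAP, part of the set already fell. The median log2 fold change was -0.51, and 19 of 45 genes were called lower, beside 7.14% of all genes called lower and 9.64% higher. For 17, and for 20.1% of all genes, every BAP library lay below every DMSO library. All 19 were also called lower at 24 h. They comprised 3 of 4 LHCA, 6 of 12 LHCB, 2 of 12 photosystem I, 5 of 9 photosystem II and 3 of 3 Calvin cycle genes, and no plastocyanin or Rubisco gene. PSBR stood at 109, 118 and 124 CPM in DMSO and 66.4, 67.7 and 78.5 CPM in BAP (log2 fold change -0.74, SE 0.093, adjusted p = 0.00188). GAPA1 went from 45.1, 60.5 and 62.3 to 30.99, 35.02 and 35.9 CPM (log2 fold change -0.73, SE 0.13, adjusted p = 0.0053) and GAPB from 17.4, 23.4 and 22.8 to 13.4, 14.7 and 15.8 CPM (log2 fold change -0.55, SE 0.12, adjusted p = 0.015). In none of these 3 genes did the groups overlap. LHCA4 went from 103, 127 and 126 to 70.1, 82.1 and 98.5 CPM (log2 fold change -0.52, SE 0.14, adjusted p = 0.0273) and LHCB1.3 from 178, 302 and 334 to 135, 129 and 156 CPM (log2 fold change -0.96, SE 0.21, adjusted p = 0.0144). LHCB4.1 went from 48.2, 68.98 and 76.7 to 41.9, 43.5 and 44.5 CPM and PSBO2 from 10.6, 14.2 and 15.6 to 6.93, 8.24 and 9.87 CPM, and both were called.

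Several abundant genes missed the threshold at 4 h. LHCB1.5 stood at 121, 200 and 164 CPM in DMSO and 90.3, 103 and 128 CPM in BAP, PSAK at 35.5, 45.7 and 52.2 CPM in DMSO and 31.03, 28.8 and 40.7 CPM in BAP, and RBCS1A at 85.99, 116 and 154 CPM in DMSO and 78.7, 86.95 and 102 CPM in BAP. In each of them the groups overlapped. PETE2 stood at 31.9, 40.2 and 43.9 CPM in DMSO and 25.4, 22.9 and 33.97 CPM in BAP, and PSBX at 58.96, 62.8 and 83.96 CPM in DMSO and 50.3, 58.9 and 64.5 CPM in BAP. DMSO replicate 1 lay below the DMSO mean for 44 of 45 genes. The count of calls rose to 34 without it and was 4 without DMSO replicate 2, 7 without DMSO replicate 3, 4 without BAP replicate 1, 5 without BAP replicate 2 and 8 with all groups of the time in 1 fit.

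With EST + BAP for 4 h, 9 of 46 genes were called lower than in DMSO, with a median log2 change of -0.51 (4.65% of all genes lower, 6.38% higher). RBCS2B, which entered this fit through its high EST + BAP counts, is described separately. For 15 every treated library lay below DMSO, as for 17% of all genes. The 9 were LHCA4, LHCB1.1, LHCB1.3, LHCB1.5, LHCB3, LHCB4.2, PSAD2, PSAE2 and PSBR. LHCB1.3 stood at 153, 103 and 155 CPM (log2 fold change -0.997, SE 0.25, adjusted p = 0.0358), LHCB1.5 at 90.3, 83.1 and 93.7 CPM (log2 fold change -0.88, SE 0.17, adjusted p = 0.0155) and PSBR at 88.9, 68.8 and 85.5 CPM (log2 fold change -0.55, SE 0.11, adjusted p = 0.0197). All 3 lay below every DMSO library. LHCA4 stood at 80.02, 72.6 and 89.4, LHCB4.1 at 48.6, 36.7 and 56.5, PSAK at 40.6, 21.7 and 40.1 and PSBO2 at 8.32, 8.14 and 11.7 CPM. PETE2 stood at 33.4, 17.7 and 31.2, RBCS1A at 98.5, 59.9 and 118, GAPA1 at 38.3, 27.5 and 44.8 and GAPB at 20.01, 12.1 and 19.8 CPM. In all 8 of these genes replicate 2 was the lowest EST + BAP library. The 9 became 18 without DMSO replicate 1, 2 without DMSO replicate 2 or EST + BAP replicate 3, and 3 without DMSO replicate 3, EST + BAP replicate 1 or EST + BAP replicate 2, and DESeq2 called 14.

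Set against BAP alone at 4 h, EST + BAP lay close to it, with a median log2 change of 0.02 over the 46 genes. The one call was RBCS2B, which had entered this fit through its high EST + BAP counts and is described separately (0.19% of all genes were called higher and 0.144% lower). Set against EST alone at 4 h, the median was -0.57 and 2 of 46 genes were called lower, LHCB1.5 (log2 fold change -1.17) and LHCB4.2 (log2 fold change -1.48), with 3.39% of all genes lower and 4.16% higher. For 20, and for 15.2% of all genes, every EST + BAP library lay below EST. In this comparison the replicate numbers paired the libraries, and with replicate as a block 15 genes were called lower. The 2 became 5 without EST replicate 1, 1 without EST + BAP replicate 1 and 0 without EST + BAP replicate 2 or 3.

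EST alone for 4 h changed none of the 45 genes by the edgeR test, where 0.00927% of all genes were called higher and 0.00464% lower. In that test 1 gene had an unadjusted p under 0.05, and DESeq2 called 1, RBCS3B (log2 fold change 1.37 in edgeR). The median was 0.05. Replicate 3 stood high among the EST libraries for the antenna genes. LHCA4 stood at 122, 103 and 174 CPM, LHCB1.3 at 193, 204 and 364 CPM, LHCB1.5 at 164, 136 and 298 CPM and LHCB4.1 at 52.03, 57.4 and 82.8 CPM. PSBR stood at 103, 117 and 146, PSAK at 40.6, 41.4 and 60.02 and PSBO2 at 11.6, 12.6 and 19.7 CPM. PETE2 stood at 30.5, 35.8 and 47.8, RBCS1A at 90.1, 98.2 and 151, GAPA1 at 47.8, 48.7 and 70.5 and GAPB at 17.9, 19.7 and 25.7 CPM. Every one of these ranges overlapped that of the DMSO libraries.

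**Figure D3:**
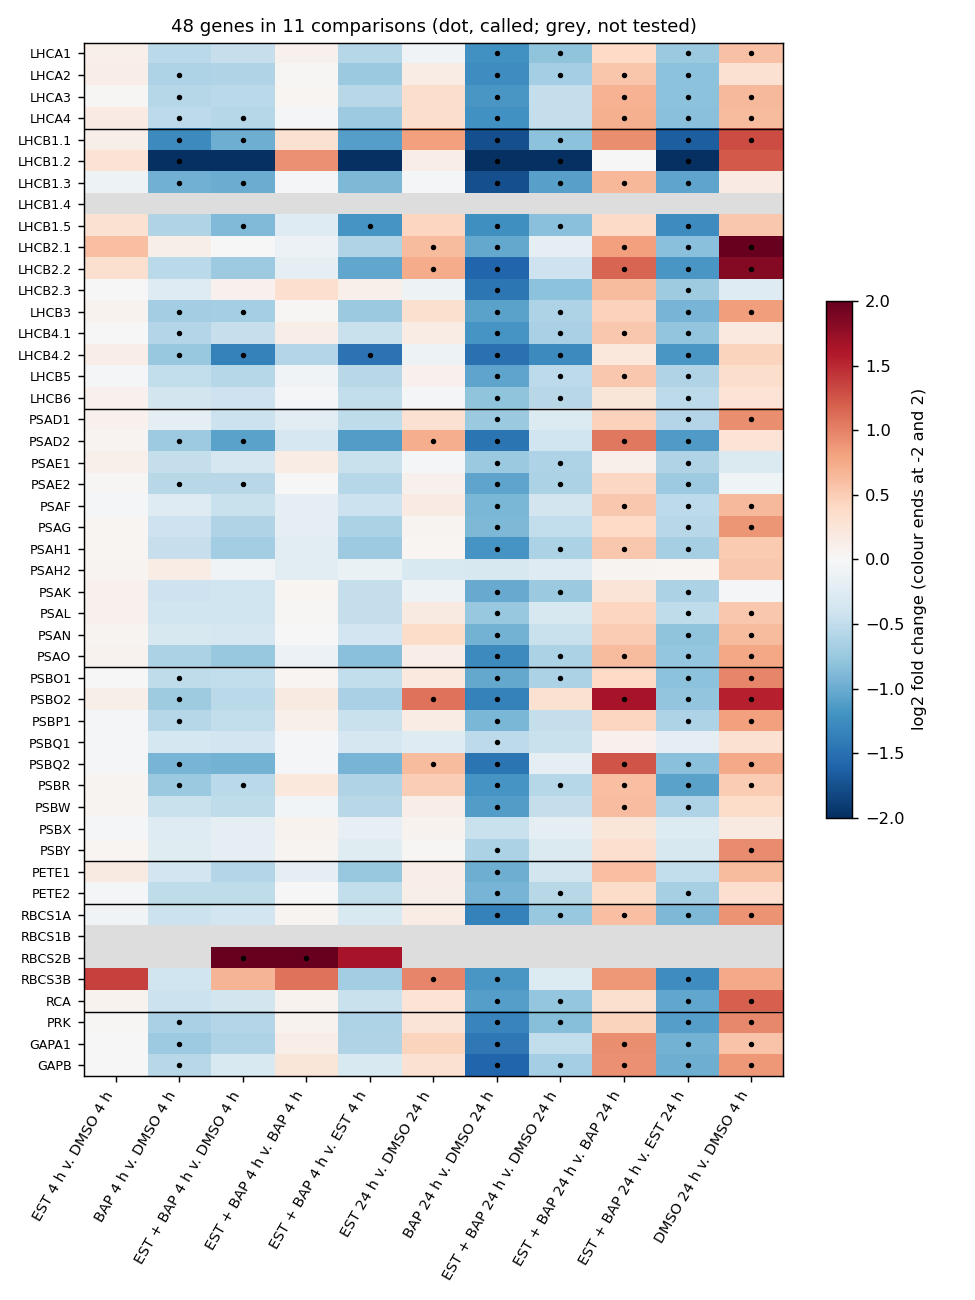
Log2 fold change (colour, from -2 in blue to 2 in red) of the 48 genes (rows, grouped by role) in 11 comparisons (columns); a dot marks a gene called, and grey a gene not tested. The BAP 24 h column holds 43 dots, all blue, and the EST 4 h column holds none.

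RBCS2B was counted mainly in the 4 h libraries with EST. RBCS1B, RBCS2B and RBCS3B lie in tandem on chromosome 5, from 15376988 to 15385320. RBCS2B had 3, 0 and 0 counts in the DMSO libraries, 0, 175 and 67 in EST, 0, 0 and 1 in BAP and 79, 580 and 200 in EST + BAP. It was high in 2 of 3 EST and in all EST + BAP libraries, and near or at 0 elsewhere, with 0 to 15 counts in the 24 h libraries. With depth taken into account, the summed EST + BAP counts were 310 times the DMSO counts (95% interval 106 to 1500, counting error only). Against BAP, with a sum of 1 count, the ratio was 846 (151 to 33500). RBCS2B passed the filter on low counts in these fits only through the EST + BAP libraries in which it was high, so these values are a description and its fitted calls support nothing.

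The reads may have been split between RBCS2B and its near-identical neighbour RBCS3B, or between RBCS2B and the far more abundant RBCS1A. The sum over the B copies leaves out RBCS1A and so does not cover a split with it. At 4 h, RBCS3B levels were 2.31, 4.29 and 4.601 CPM in DMSO, 7.76, 8.304 and 13.03 in EST, 2.97, 2.48 and 3.13 in BAP and 7.39, 2.18 and 8.68 in EST + BAP. Summed over the 3 B copies, levels were 2.49, 4.37 and 4.69 CPM in DMSO, 7.82, 13.6 and 15.1 in EST, 3.08, 2.48 and 3.198 in BAP and 9.82, 17.02 and 14.3 in EST + BAP. The EST and EST + BAP libraries lay above every DMSO and BAP library. For the sum, EST + BAP was called higher than DMSO (log2 fold change 1.81, SE 0.27, adjusted p = 0.00626, by edgeR) and than BAP (log2 fold change 2.24). With copies not summed, 6.38% and 0.19% of all genes were called higher in these comparisons, and RBCS3B alone was called in neither. The sum holds the RBCS2B counts, which stood out by being high in EST + BAP, so both calls are a description and support nothing. For EST against DMSO the sum was not called (log2 fold change 1.65, adjusted p = 0.97). At 24 h the sum stood at 8.13, 5.56 and 6.97 CPM in DMSO, 15.2, 11.8 and 11.3 in EST, 4.76, 1.29 and 3.22 in BAP and 5.84, 5.098 and 5.24 in EST + BAP, and under BAP it fell with the other genes (log2 fold change -1.17, called). AXR3 counts, which add the transgene to the endogenous gene, also differed between the 4 h groups, at 47.4 to 50.8 CPM in DMSO, 131 to 176 in EST, 155 to 177 in BAP and 258 to 314 in EST + BAP. These counts do not tell the transgene from the endogenous gene. At 24 h they were 69.7 to 77.7, 81.4 to 89.6, 202 to 219 and 137 to 168 CPM. Their part in these results was not tested.

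The control segments also differed between the times. Of 45 genes, 24 were called higher in DMSO at 24 h than at 4 h, with a median log2 change of 0.63, beside 8.03% of all genes higher and 8.73% lower. For 29, and for 22.1% of all genes, every 24 h library lay above the 4 h libraries. By log2 fold change, LHCB2.1 (2.62), LHCB2.2 (1.84) and PSBO2 (1.55) differed most, and the LHCB2 sum had a log2 fold change of 2.28. PSAK and LHCB1.3 had log2 fold changes of -0.03 and 0.16 and were not called. Of 9 clock genes, 4 were called higher and 3 lower, with log2 fold changes from -4.36 to 3.48, and their part in the difference was not tested. The count fell to 12 without DMSO 24 h replicate 3.

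**Figure D4:**
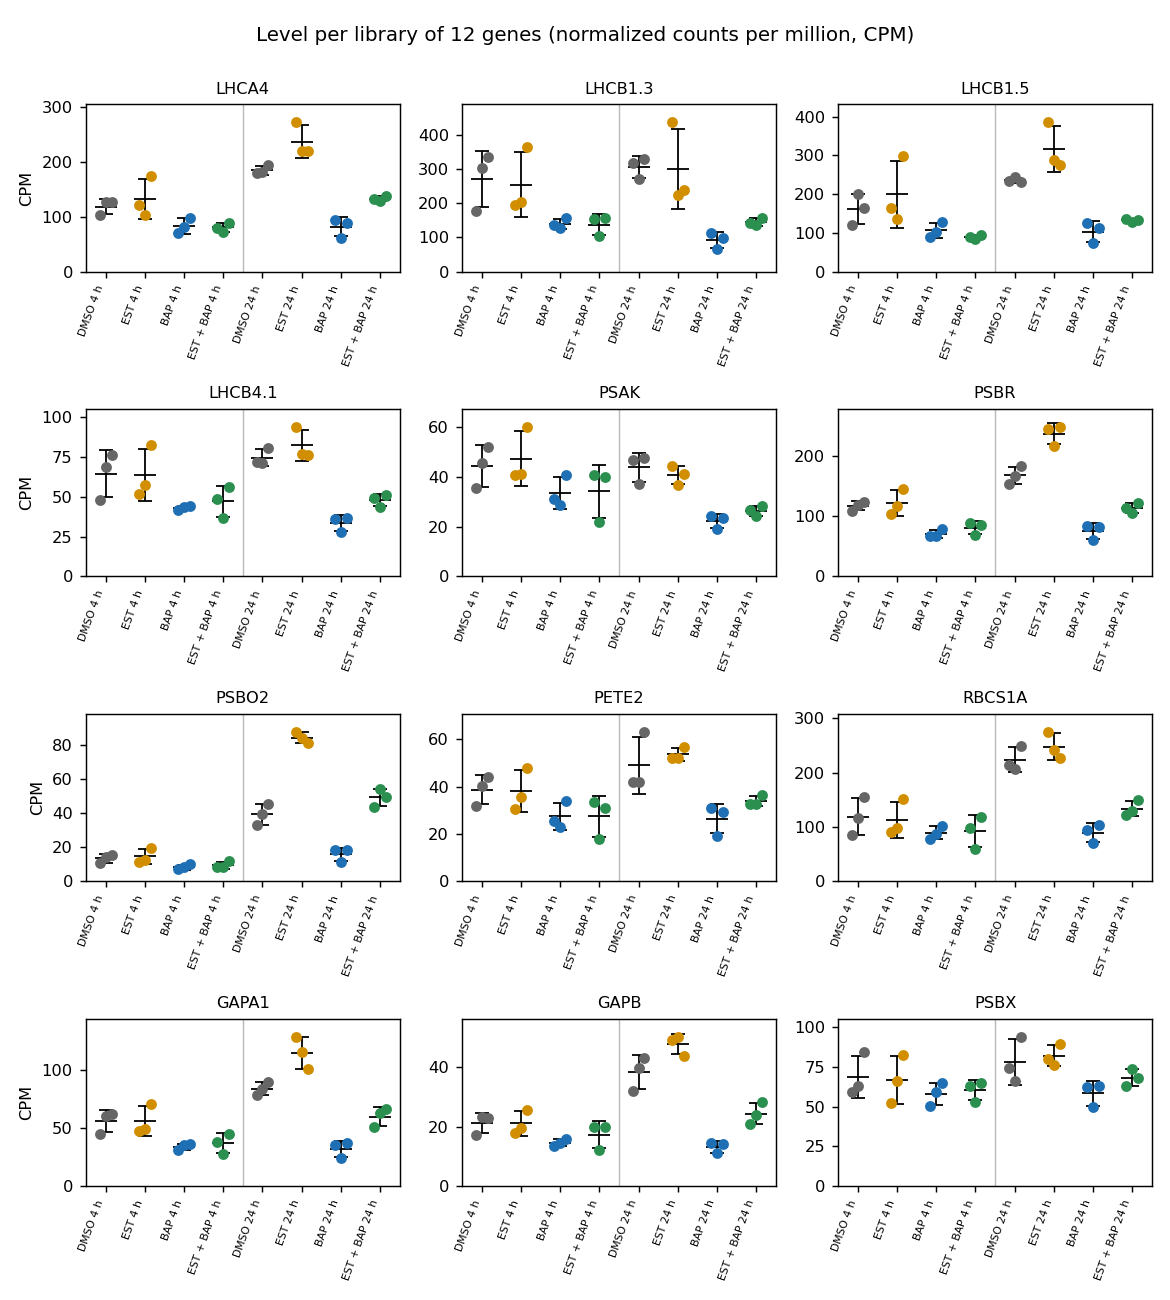
Level of 12 genes in CPM (y axis of each panel, from 0) in the 24 libraries, by group (x axis); points are libraries, and bars are the mean and SD of 3. In all 12 panels the BAP 24 h libraries lie below all DMSO 24 h libraries, in the PSBX panel by a narrow margin.

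Whether the response to BAP differed between times, and whether EST and BAP acted other than additively on the log scale, was tested by interaction terms. For BAP by time, 44 of 45 genes had a more negative change at 24 h, with a median difference of -0.58. The mean summed level was 1360 CPM in BAP and 1999 CPM in DMSO at 4 h, and 1381 and 3006 CPM at 24 h. The level in BAP was thus similar at both times, while that in DMSO was higher at 24 h. GAPB was the one that passed in the fit without a replicate block (difference of log2 fold changes -1.02, SE 0.20, adjusted p = 0.0126 by edgeR), where 3.16% of all genes passed with a positive and 3.66% with a negative difference. In that test 23 of the 45 had an unadjusted p under 0.05. The count was 2 without BAP 24 h replicate 1 and 3 without DMSO 4 h replicate 3, DESeq2 gave 5, and a replicate block gave 13. For EST by BAP at 24 h the median was 0.33 and 42 of 45 values were positive, which means that the combined level lay above the sum of the separate changes. None passed (0 by edgeR and by DESeq2, 10 with an unadjusted p under 0.05; 0.98% and 0.423% of all genes passed). At 4 h that term passed in 0 of 46 genes by either tool, with 0 under an unadjusted p of 0.05 and 0% of all genes passing. For EST by time, 0 of 46 passed in edgeR, 4 had an unadjusted p under 0.05, and DESeq2 gave 1, PSBO2 (1.92% and 3.26% of all genes passed). The edgeR count was 1 without DMSO 4 h replicate 1 (PSBO2) and 3 without EST 4 h replicate 3 (PSBO2, PSBQ2 and PSBR). It was also 1 without EST 4 h replicate 1, but that gene was RBCS2B. RBCS2B entered this fit only through its high EST 4 h counts, so its pass supports nothing.

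Other genes of photosynthesis were followed as a list of 34, of which 33 were in the table and 32 were tested in most comparisons. After 24 h of BAP, 21 of 32 were called lower, beside 17.2% of all genes, with a median log2 change of -0.74. Those with the smallest p, with their log2 fold changes, were FBA2 (-2.35), a chloroplast fructose-bisphosphate aldolase, AT4G32260 (-1.02) and RPE (-0.87), an epimerase of the Calvin cycle. At 4 h of BAP, 9 of 32 were called lower, beside 7.14% of all genes. Among them, with their log2 fold changes, were TKL1, transketolase (-0.64), RPE (-0.53) and HCEF1, a chloroplast fructose bisphosphatase (-1.02). EST + BAP at 24 h left 8 called lower than in DMSO (10% of all genes) and 14 called higher than in BAP (11.6% of all genes). In the latter, PGRL1B (log2 fold change 0.63), AT2G26500 (0.66) and RPE (0.56) had the smallest p. Under EST at 24 h, CP12-2, a regulator of the Calvin cycle enzymes, was called higher (log2 fold change 1.18) and PSBTN, a small photosystem II subunit, lower (-0.50). There, 6.26% of all genes were called higher and 8.96% lower.

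Of 6 genes for plastid enzymes that serve non-photosynthetic metabolism in roots, 1 was called lower after 24 h of BAP, a share near the 17.2% of all genes, and the median log2 change was -0.01. It was RFNR2, a root ferredoxin-NADP reductase (log2 fold change -1.65), which was also called lower under EST at 24 h (-1.04) and at 4 h of BAP (-1.21). The 9 loci of the chloroplast genome followed beside them all had negative values after 24 h of BAP (median log2 change -0.52). Of these, 5 were called lower, against 17.2% of all genes. Against BAP, EST + BAP at 24 h had 9 positive values with a median log2 change of 0.30. The edgeR test called 0 of these, at the same thresholds. All lay under the fold limit (largest log2 fold change 0.49), and the smallest adjusted p was 0.00256.

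Among 5 regulators of greening, only GLK2 and HY5 had enough counts for every test. GLK2, a transcription factor that activates antenna and chlorophyll synthesis genes, stood at 12.8, 13.2 and 11.5 CPM in DMSO, 12.7, 8.36 and 9.601 in EST, 8.74, 6.28 and 7.89 in BAP and 6.86, 3.61 and 4.85 in EST + BAP at 24 h. It was called lower in BAP (log2 fold change -0.74, SE 0.14, adjusted p = 0.00214) and in EST + BAP (log2 fold change -1.32, SE 0.21, adjusted p = 0.0011). EST + BAP against BAP did not pass the edgeR test for GLK2 (log2 fold change -0.58, SE 0.24, adjusted p = 0.0815). All 45 photosynthesis genes tested had positive values in that comparison. A link between GLK2 and their levels was not tested. At 4 h GLK2 stood at 3.65, 7.202 and 4.84 CPM in DMSO and 4.799, 4.05 and 4.298 CPM in BAP, which was not called. HY5, a bZIP factor of light signalling, stood at 25.4, 23.2 and 17.1 CPM in DMSO and 16.4, 11.3 and 13.2 CPM in BAP at 4 h and was called lower (log2 fold change -0.69, SE 0.18, adjusted p = 0.028). At 24 h it stood at 19.3, 21.8 and 21.1 CPM in DMSO and 14.8, 18.1 and 20.4 CPM in BAP and was not called. GLK1 had 0 to 10 counts a library, GNC 1 to 22 and CGA1, a GATA factor known to respond to cytokinin, 1 to 42. CGA1 was tested at 24 h of BAP and was not called (log2 fold change 0.77, SE 0.40, adjusted p = 0.138).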

How the data were processed

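Root RNA depleted of ribosomal RNA was sequenced with a strand-specific kit from 24 libraries in 8 groups of 3. Per the study's methods and the submitters' processing notes, reads were trimmed with Trimmomatic 0.36, checked with FastQC and quantified with kallisto 0.43.0 against AtRTD2, and the deposited table holds whole-number estimated counts for each locus. Whether kallisto ran with a strand option is not given in the sources used here.

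Each pair of groups was tested separately with the quasi-likelihood test of edgeR 4.0.16 (limma 3.58.1, R 4.3.3), with TMM normalization, filterByExpr at a minimum count of 10 and p-values adjusted over all genes tested. A gene was called at a log2 fold change of at least 0.5 either way and an adjusted p of at most 0.05, after the study's own thresholds, and interactions at the adjusted p alone. Standard errors were derived from the fold change and the F statistic. Levels are TMM-normalized CPM over all 24 libraries. Genome positions, promoters and transcript lengths came from the RefSeq annotation of TAIR10.1, which matched 33437 of the 34212 loci. The procedure was tested on simulated counts.

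The 48 genes and all lists were chosen with earlier results of these data known. Values per library are given for the gene of each role with the highest mean level per length, for the 5 genes with the smallest p against DMSO and for those called against the majority. Genes of the other lists are named by the 3 smallest p of a comparison, and the greening regulators by their values. For 1 gene of the list of other photosynthesis genes no row was used, and it is not analysed here.

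Alternatives were DESeq2 1.42.0, DESeq2 size factors, no filter, organelle and ribosomal RNA left out, summed copies, 1 fit of all groups, a replicate block and each library left out. Libraries with the same replicate number deviated together in 3 comparisons, with correlations of the deviations of 0.345, 0.258 and 0.285 for EST + BAP against BAP at 4 h, 0.25, 0.259 and 0.356 for EST + BAP against EST at 4 h, and 0.256, 0.107 and 0.187 for BAP against DMSO at 24 h. The study's methods state that each experiment was repeated 3 times, and p-values measure the spread between these repeats.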

Additional observations from a re-analysis of the deposited data

Results flagged for a closer look

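GAPB, a subunit of the chloroplast glyceraldehyde-3-phosphate dehydrogenase, had a response to BAP that differed between times by a test of the difference. It was the one gene of the 48 that passed in edgeR without a replicate block, while DESeq2 gave 5 genes and edgeR with the block 13. Its log2 fold change was -0.55 at 4 h and -1.59 at 24 h, a difference of -1.02 (edgeR interaction term, adjusted p = 0.0126). GAPB passed in all 12 fits that left out 1 library, and the BAP libraries lay below every DMSO library at both times. Its levels in BAP overlapped between the times, while every DMSO library of 24 h lay above every DMSO library of 4 h. The times were separate experiments, which cannot be told apart from time.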

How the results depend on the processing

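No called result reversed its direction under any alternative. For EST at 4 h, DESeq2 called 1 gene higher in place of 0. For BAP at 4 h, 1 fit of all groups called 8 lower in place of 19. For EST + BAP against DMSO at 4 h, DESeq2 called 14 lower in place of 9. For EST + BAP against BAP at 4 h, 1 fit of all groups called 0 higher in place of 1, and DESeq2 called 1 lower. For EST + BAP against EST at 4 h, in place of 2 called lower, DESeq2 size factors gave 1, no filter 4, DESeq2 13, the replicate block 15, summed copies 1 and 1 fit of all groups 9. For BAP by time, in place of 1, no filter gave 2, DESeq2 5 and the replicate block 13, and for EST by time, in place of 0, DESeq2 and the replicate block gave 1 each. The block changed no other count by over 1.5 times, and no block could be fitted for DMSO at 24 h against 4 h, where the numbers belong to separate experiments.

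With each library left out in turn, the count called lower ranged from 4 to 34 for BAP at 4 h, from 2 to 18 for EST + BAP against DMSO at 4 h, from 0 to 5 for EST + BAP against EST at 4 h, from 37 to 44 for BAP at 24 h, from 16 to 30 for EST + BAP against DMSO at 24 h and from 33 to 41 for EST + BAP against EST at 24 h. The count called higher ranged from 1 to 2 for EST + BAP against DMSO and 0 to 2 against BAP at 4 h (counts that include RBCS2B, which passed the filter only through EST + BAP), from 4 to 8 for EST at 24 h, from 9 to 30 for EST + BAP against BAP at 24 h and from 12 to 26 for DMSO at 24 h against 4 h. The count that passed ranged from 1 to 3 for BAP by time and from 0 to 3 for EST by time. In the latter, the gene that passed without EST 4 h replicate 1 was RBCS2B, which entered only through its high EST 4 h counts. The median log2 fold change ranged from 0.088 to 0.27 for EST, from -1.24 to -0.94 for BAP, from 0.31 to 0.64 for EST + BAP against BAP and from -0.85 to -0.69 for EST + BAP against EST, all at 24 h.

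Of calls of single genes, 933 were kept and 201 lost over the fits that left out 1 library, 168 and 19 with 1 fit of all groups, 184 and 4 with DESeq2, 158 and 6 with the block, and 185 and 3 with no filter. The calls that were made in every fit with 1 library left out numbered 4 of 19 for BAP at 4 h and 37 of 43 at 24 h. Depth limited RBCS1B, LHCB1.4, GLK1, GNC and CGA1, whose low counts could show only large changes. The cause of the other shifts was not tested.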
